A study of Mus musculus with 8 samples.

Results

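*Rnf44*, *Ube2a*, *Uchl1* and *Uchl3* are 4 genes of the ubiquitin system whose promoters carried PRDM10 ChIP-seq peaks in mouse embryonic stem cells (mESCs). They were chosen by name, with their peaks already known, from the 691 genes that had a peak in the control list. A peak was assigned to a gene when it overlapped the GENCODE vM21 gene body extended by 5 kb upstream and 1 kb downstream. By this rule each of the 4 genes had 1 of the 528 peaks of the control list and 1 of the 176 peaks of the deletion list.

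PRDM10 is a zinc finger transcription factor of the PRDM family. The control cells were Prdm10F/F; Rosa26-CreERT2 mESCs given ethanol (EtOH), and the deleted cells, labelled Prdm10del/del; Rosa26-CreERT2, were the same kind of cells given 50 nM 4-hydroxytamoxifen (4-OHT). Both were treated for 24 h and harvested at 48 h, and both carried the floxed *Prdm10* allele and a tamoxifen-activated Cre recombinase expressed from the *Rosa26* locus. They were grown without feeders in medium with serum and LIF. Each treatment had 3 ChIP samples and 1 input sample, and the 3 ChIP samples of a treatment were made with 3 different polyclonal antibodies against PRDM10, so they are not like-for-like repeats. Cre-mediated deletion acts on the gene, and how much PRDM10 protein was left at the time of harvest is not given by the peak lists.

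Ubiquitin is a small protein that is joined to other proteins in a cascade. An activating enzyme (E1) loads ubiquitin and passes it to a conjugating enzyme (E2), and a ligase (E3) then directs it from the E2 to a substrate. Deubiquitinases, among them the ubiquitin carboxyl-terminal hydrolase (UCH) family, cut ubiquitin off again or free it from small adducts and precursors. Chains of ubiquitin can send a protein to the proteasome, whereas a single ubiquitin on histone H2B or on the replication clamp PCNA alters transcription or the bypass of DNA damage. *Ube2a* encodes an E2 of the RAD6 type, which works with the ligases RNF20 and RNF40 on histone H2B, with RAD18 on PCNA and with UBR1 and UBR2 in the N-degron pathway. *Rnf44* encodes a RING finger protein, a domain typical of E3 ligases. *Uchl1* and *Uchl3* encode related hydrolases of the UCH family, and UCHL1 is best known as one of the most abundant proteins of neurons.

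The values are those of the authors' pooled analysis. The signal value of a peak is the enrichment that the SPP peak caller assigned over the pooled ChIP samples of a treatment, and rank 1 is the highest signal value of a list. The irreproducible discovery rate (IDR) score states how reproducibly a peak was found between pseudo-replicates of the pool, where a higher score is more reproducible and 1000 is the maximum. With 1 pooled list per treatment, no value has a replicate error, no test between the treatments was possible, and the depth of the libraries is not recorded in the lists. Signal values ran from 9.78 to 899.8 (median 131) in the EtOH list and from 14.2 to 434 (median 55.7) in the 4-OHT list, and they are not on a common scale.

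The DNA under the peaks is shown first, because the 4 promoters differ in how many copies of the PRDM10 motif core they hold. The core is TGGTNNNNNCC, the invariant part of the motif that the study found in these same peaks and placed in its gel shift probe, so its presence in the peaks is a description. All sequences are from GRCm38.p6 and run 5′ to 3′, and capitals mark the 6 fixed letters of a core. The 9 cores of the 4 EtOH peaks are given with the bases on either side, each read on the strand that carries the core, and are numbered in the direction of transcription of the gene. The gel shift probe, a designed oligonucleotide of 28 bases, follows for comparison.
Rnf44 site 1: gaTGGTacagcCCg
Rnf44 site 2: ggTGGTgaggcCCg
Rnf44 site 3: aaTGGTccgccCCg
Rnf44 site 4: gaTGGTgcggcCCg
Ube2a site 1: ctTGGTacggtCCg
Ube2a site 2: gtTGGTtcggcCCc
Uchl1 site 1: aaTGGTacaagCCa
Uchl3 site 1: gtTGGTttcccCCt
Uchl3 site 2: gaTGGTgccggCCg
WT probe: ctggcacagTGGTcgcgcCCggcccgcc

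Outside the fixed letters the sites varied. Position 8 of the 14 bases, counted from 1 at the 5′ end of each site, was C in 7 of the 9 sites, against 44.8% of the 507 cores in all EtOH peaks. Position 1 was G in 6 of the 9 sites, against 31.8% of all cores, and position 14 was G in 6 of the 9 sites, against 32.9%. The 9 sites are not independent of each other. The 4 *Rnf44* sites come from the same peak, all have G at position 14, and some lie in stretches of similar sequence. A site shared between 7 and 10 of its 14 bases, the fixed letters included, with the corresponding bases of the probe. The lowest number was at *Uchl1* and the highest at *Rnf44* sites 2 and 3.

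The next stretches show the spacing of the cores in the promoters, and annotated untranslated regions (UTRs) are left out beyond single sites. The *Rnf44* stretch of 300 bases lies at chr13:54693990-54694289 on the minus strand, which is the strand of the gene, and holds sites 1 to 3, the last of them on the opposite strand. The *Ube2a* stretch lies at chrX:36874153-36874294 on the plus strand and ends at the base before the main TSS. The *Uchl3* stretch lies at chr14:101653839-101653993 on the plus strand. For *Uchl1*, whose core lies in the 5′ UTR, only the 30 bases at chr5:66676084-66676113 are given, on the minus strand.
Rnf44 promoter: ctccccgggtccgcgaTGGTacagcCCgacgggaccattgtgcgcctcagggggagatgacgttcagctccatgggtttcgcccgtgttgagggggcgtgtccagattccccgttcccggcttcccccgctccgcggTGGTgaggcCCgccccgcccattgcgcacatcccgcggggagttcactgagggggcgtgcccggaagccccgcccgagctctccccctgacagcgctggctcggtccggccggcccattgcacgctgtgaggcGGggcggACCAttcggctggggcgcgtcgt
Ube2a promoter: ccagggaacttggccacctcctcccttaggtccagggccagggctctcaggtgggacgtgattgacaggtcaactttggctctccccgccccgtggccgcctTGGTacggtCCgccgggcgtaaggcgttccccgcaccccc
Uchl3 promoter: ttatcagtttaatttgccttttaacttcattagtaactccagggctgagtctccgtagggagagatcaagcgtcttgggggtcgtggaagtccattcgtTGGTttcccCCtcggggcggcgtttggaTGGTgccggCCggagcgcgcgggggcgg
Uchl1 site with flanks: ccgcacagaaTGGTacaagCCaagccccca

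All 4 genes had a peak in both lists. As background, 2.48% of the 21951 protein-coding genes had an EtOH peak in the same window and 0.733% had a 4-OHT peak, and since the 4 genes were picked for their peaks nothing is read from the contrast. In the EtOH list the signal value was 899.8 at *Rnf44*, 731 at *Uchl1*, 565 at *Uchl3* and 254 at *Ube2a*. These values stand at ranks 1, 7, 30 and 182 of 528. In the 4-OHT list the order changed to 288 at *Uchl3*, 200.0 at *Uchl1*, 61.8 at *Rnf44* and 52.2 at *Ube2a*, at ranks 7, 17, 81 and 98 of 176. The hydrolase genes thus stood near the top of both lists, *Rnf44* led the EtOH list only, and *Ube2a* was the lowest of the 4 genes in both.

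**Figure D1:**
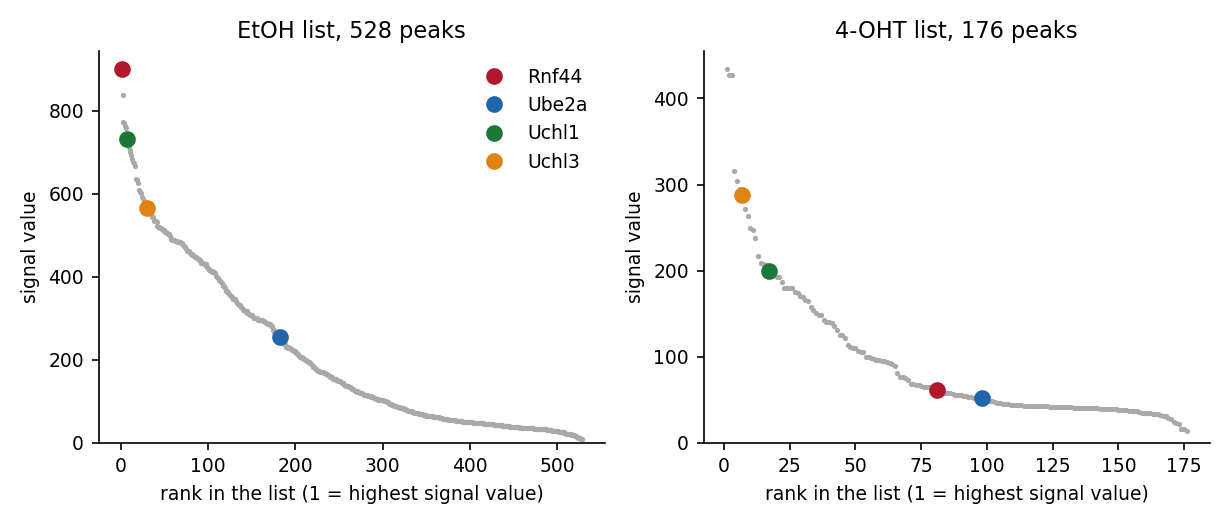
Signal value (linear axis from 0) of every peak against its rank in the EtOH list (left, 528 peaks) and the 4-OHT list (right, 176 peaks), with the peaks of the 4 genes coloured. *Rnf44* is at rank 1 on the left and rank 81 on the right, whereas *Uchl3* is at ranks 30 and 7, and the vertical scales of the panels are not comparable.

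*Ube2a* (ENSMUSG00000016308) spans 36873900 to 36884222 of chromosome X, is read from the plus strand and has 9 annotated transcripts. Its EtOH peak covered 36874153 to 36874357 (GRCm38). With 205 bp it came at place 31 from the narrowest in the list, in which 300 of the 528 peaks had the common width of 430 bp. The signal value of 254 was 1.93 times the median of the EtOH list, and the IDR score was 1000. The summit at 36874254 lay 41 bp upstream of the TSS of Ube2a-201, the principal coding transcript, and inside an intron of Ube2a-203, a processed transcript that starts further upstream. The peaks ranked next above and next below it were at *Ltbp4* (257) and *Pmvk* (243).

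The *Ube2a* promoter is shared. *C330007P06Rik*, a protein-coding gene on the opposite strand, starts at 36874111, and the summit lay 143 bp upstream of that start. The distance to the *Ube2a* TSS was shorter than this, but a peak between 2 divergent starts cannot be given to one of them from its position. *C330007P06Rik* had a further EtOH peak from 36864132 to 36864561, with a signal value of 112 at rank 285, at other starts of that gene. This peak fell 4.34 kb outside the window of *Ube2a* and was not counted for it. No other EtOH or 4-OHT peak lay within 1 Mb of the window of *Rnf44*, *Uchl1* or *Uchl3*, and no other 4-OHT peak lay within 1 Mb of that of *Ube2a*.

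*Rnf44* (ENSMUSG00000034928) spans 54679399 to 54693907 of chromosome 13, on the minus strand, with 18 annotated transcripts. Its EtOH peak covered 54693719 to 54694427. At 709 bp it was the widest peak of the EtOH list and at 899.8 it had the highest signal value, 6.84 times the median. The next signal value was 838, at *Cenpn*. The summit at 54694027 lay 120 bp upstream of the outermost TSS, that of Rnf44-211, and 177 to 215 bp upstream of the starts of 4 other transcripts. The transcript that the annotation marks as principal, Rnf44-204, starts 5933 bp downstream of the summit, so the peak marks the upstream promoter of the gene. No other gene's window held this peak.

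*Uchl1* (ENSMUSG00000029223) spans 66676091 to 66687234 of chromosome 5 and is on the plus strand. Its EtOH peak covered 66675955 to 66676333 and had a signal value of 731, 5.56 times the median. Its neighbours by rank were *Galnt10* (759) and *Cnot6* (729.7). Unlike at the other 3 genes, the summit at 66676156 was downstream of the principal start, 65 bp into the 5′ UTR of Uchl1-201, and 86 bp upstream of the start of Uchl1-203, a transcript with a retained intron. The antisense gene *Uchl1os* overlaps this promoter, and the summit lay 123 bp upstream of the nearest of its starts, at 66676033. ChIP fragments carry no strand, so the peak cannot be assigned to either of the 2 genes.

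*Uchl3* (ENSMUSG00000022111) spans 101653967 to 101696125 of chromosome 14, again on the plus strand. Its EtOH peak covered 101653657 to 101654070, with a signal value of 565, between *Atrnl1* (573) and *Noct* (564.9) in the order of the list. The summit at 101653879 lay 88 bp upstream of the outermost start, that of Uchl3-204, and 115 bp upstream of the start of the principal transcript Uchl3-201. No other gene's window held this peak, and the next EtOH peak on the chromosome was 25.5 Mb away.

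**Figure D2:**
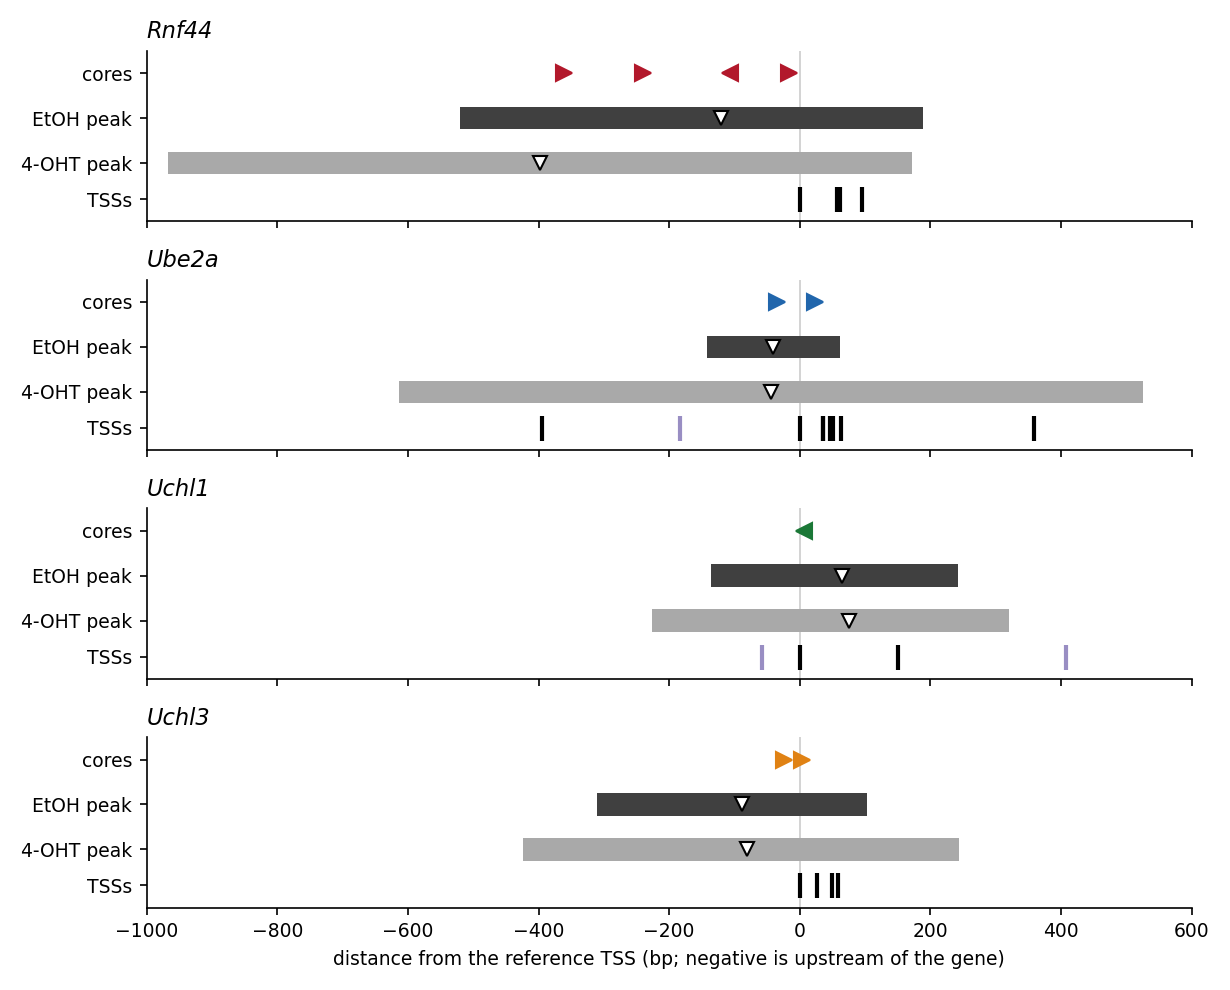
Peaks (bars), summits (white triangles), motif cores (coloured arrows, pointing right when on the strand of the gene) and annotated TSSs within 500 bp of the EtOH summit (black, own gene; purple, *C330007P06Rik* or *Uchl1os*), by distance in bp from the TSS of the gene nearest to the EtOH summit. The EtOH and 4-OHT summits lie 3 to 11 bp apart at *Ube2a*, *Uchl1* and *Uchl3* and 278 bp apart at *Rnf44*.

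The next comparison asked what was left of these peaks after 4-OHT. With 1 shared base counted as an overlap, all 4 EtOH peaks had a partner in the 4-OHT list, as had 20.3% of all EtOH peaks. The share rose with signal value, from 3.79% of the peaks at ranks 265 to 528 to 14.4% at ranks 133 to 264 and 59.1% at ranks 1 to 132. Within this last range it was 83.3% at ranks 1 to 30, which end at the rank of *Uchl3*. *Rnf44*, *Uchl1* and *Uchl3* are in the range with 59.1%, and *Ube2a*, at rank 182, is in the range with 14.4%. As the genes were selected on these peaks, the count of 4 is a description.

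The form of the 4-OHT peaks split the genes into pairs. At *Uchl1* and *Uchl3* the 4-OHT peaks were 548 and 668 bp wide and had the maximum IDR score of 1000. At *Rnf44* and *Ube2a* they had the common width of the 4-OHT list, 1140 bp, and IDR scores of 615 and 605, which correspond to IDRs of 0.0330 and 0.0349 against the authors' limit of 0.05. Among the 107 EtOH peaks that overlapped a 4-OHT peak, the 4-OHT partner had the width of 1140 bp in 54, so this width does not mark out *Rnf44* and *Ube2a*. The partner fell short of the maximum score in 15, and *Rnf44* and *Ube2a* were among these.

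The position of the summit was nearly the same in both lists at 3 of the genes and differed at *Rnf44*. Between the lists the summit moved by 3 bp at *Ube2a*, 7 bp at *Uchl3* and 11 bp at *Uchl1*, where the median of the 107 shared peaks was 24 bp. At *Rnf44* the 4-OHT summit, at 54694305, lay 278 bp further upstream, and 2 of the 107 shared peaks had a larger distance. In the EtOH list the nearest core to the summit was *Rnf44* site 3 (13 bp), whereas in the 4-OHT list it was site 1 (37 bp).

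The ratio of 4-OHT to EtOH signal value was 0.509 at *Uchl3*, 0.274 at *Uchl1*, 0.205 at *Ube2a* and 0.0687 at *Rnf44*. The level of such a ratio depends on how each list was scaled, and its order among the shared peaks is free of scale only if the lists differ by a single factor, which was not tested. In the 107 pairs, 9 of the 4-OHT peaks were the partner of 2 EtOH peaks each, none of them at the 4 genes. *Uchl3* came at place 18 of 107 from the highest ratio, *Uchl1* at 58 and *Ube2a* at 74, and *Rnf44* was last. The median of the 107 ratios was 0.281 (quartiles 0.178 and 0.449). *Uchl1* was therefore close to the middle of the 107, *Uchl3* in the upper quartile, and *Rnf44*, which was first by EtOH signal value, had the lowest ratio. EtOH peaks without a 4-OHT partner, such as those at ranks 3 and 10, have no ratio and are left out. The lowest 4-OHT signal value in the 107 pairs was 38.3, so the lowest ratios were within reach of high EtOH signal values only. The last place of *Rnf44* therefore does not show that its peak lost the most.

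Within the 10 highest EtOH peaks, *Rnf44* had the lowest place in the 4-OHT list of those that overlapped a 4-OHT peak. Of the 10 highest EtOH peaks, 8 overlapped a 4-OHT peak. The other 7 had 4-OHT ranks from 1 (*2410006H16Rik*) to 31 (*Galnt10*), with *Uchl1* at 17, whereas *Rnf44* was at 81. The 2 without a 4-OHT peak were nearest to *Pip5k1c* and *Gm16062*. The contrast did not extend below the 10 highest, as the peaks at EtOH ranks 11 to 18 had 4-OHT ranks 57, 2, 20, 78, 77, 9, 80 and 67, in that order.

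**Figure D3:**
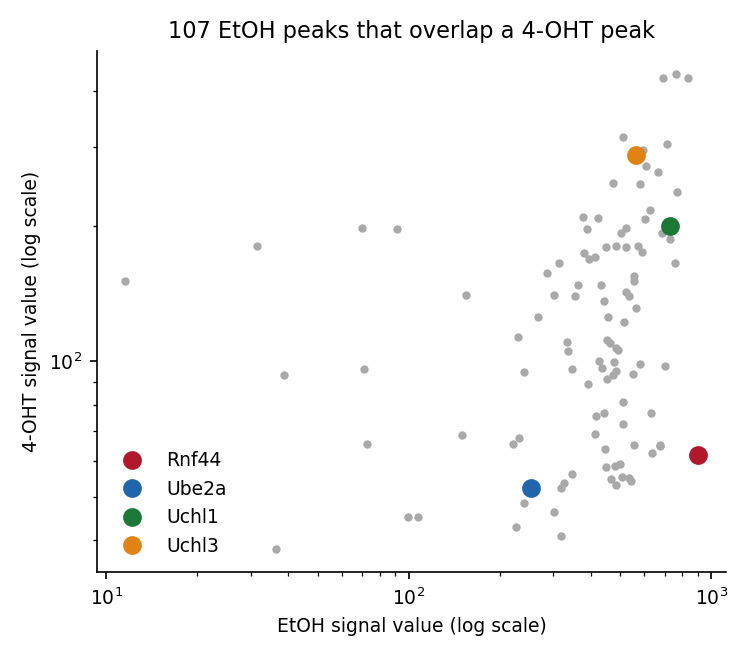
Signal value in the 4-OHT list against signal value in the EtOH list for the 107 EtOH peaks that overlap a 4-OHT peak (both axes logarithmic, 1 point per peak, the 4 genes coloured). *Rnf44* lies at the far right and near the bottom (899.8 and 61.8), apart from *Uchl1* and *Uchl3*, which lie near the top right.

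By percentile rank in both lists, the peaks most like each gene's were found among the shared peaks. Those nearest to *Rnf44* were at *Eed*, a subunit of Polycomb repressive complex 2 (ranks 14 and 78 in the EtOH and 4-OHT lists), *Tacc1* (17 and 80) and *Ephb2* (15 and 77), within 3.49 percentile points. The peaks nearest to *Uchl1* were at *Asah1*, which encodes the lysosomal acid ceramidase (13 and 20), *Cnot6*, a deadenylase of the CCR4-NOT complex (8 and 22), and *Tardbp*, which encodes the RNA-binding protein TDP-43 (4 and 12). Nearest to *Uchl3* were *Prkci*, an atypical protein kinase C (24 and 6), the cohesin subunit gene *Smc3* (21 and 8) and *Arpc4*, a subunit of the actin-nucleating ARP2/3 complex (27 and 11). For *Ube2a*, *Pknox1* (155 and 104) and *Dohh* (142 and 97) were among the 3 nearest. *Rnf44* was thus not the only strong EtOH peak with a middling 4-OHT rank.

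Each of the 4 EtOH peaks held the core. As background, 64.2% of all EtOH peaks did, and 19.5% of 21394 windows of 430 bp around the starts of protein-coding genes without an EtOH peak. The count of 4 is near what the list as a whole gives. The number of cores was 4 at *Rnf44*, 2 at *Ube2a*, 2 at *Uchl3* and 1 at *Uchl1*. At least 2 cores were found in 22.9% of all EtOH peaks and in 2.34% of the windows, and at least 4 cores in 11 of 528 peaks and 5 of 21394 windows. The *Rnf44* peak is also the widest, with 0.564 cores per 100 bp, whereas the narrow *Ube2a* peak had 0.976.

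The share of EtOH peaks with a core was higher at high signal values, with 53.4% at ranks 265 to 528, 71.2% at ranks 133 to 264 and 78.8% at ranks 1 to 132. Among the 10 highest peaks, those nearest to *Cenpn*, *Tardbp*, *Galnt10* and *Cnot6* held none, and the other 6 held 1 to 4. Against the full 14-base motif, read by eye from the study's logo, *Rnf44* sites 1, 3 and 4, *Ube2a* site 1 and *Uchl3* site 1 matched at every position. The other 4 sites each missed at 1 position outside the 6 fixed letters. Thus 3 of the 4 peaks held a full match, against 33.1% of all EtOH peaks, and *Uchl1* held none. At least 3 full matches, as at *Rnf44*, were found in 7 of 528 peaks and in none of the 21394 windows.

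The cores lay close to the starts of transcription. From the TSS used above, the centres of the *Rnf44* sites were 361, 240, 107 and 17 bp upstream. *Ube2a* site 1 was 35 bp upstream and site 2 was 24 bp downstream, in the 5′ UTR. The *Uchl1* core was 7 bp downstream of the start of Uchl1-201 and on the strand opposite to the gene. *Uchl3* site 1 was 24 bp upstream and site 2 was 4 bp downstream of the start of Uchl3-204, 28 bp from each other. In all, 7 of the 9 cores were on the strand of the gene, the exceptions being *Rnf44* site 3 and the *Uchl1* core.

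At *Ube2a* and *Rnf44* a core was almost under the EtOH summit. The nearest core was 6 bp from the summit at *Ube2a* and 13 bp at *Rnf44*, and 58 bp at *Uchl1* and 64 bp at *Uchl3*. The median over the 339 EtOH peaks with a core was 57 bp (quartiles 28.0 and 99.0). The hydrolase genes thus stood at the middle of the list, and the ligase and conjugating enzyme genes below its lower quartile.

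**Figure D4:**
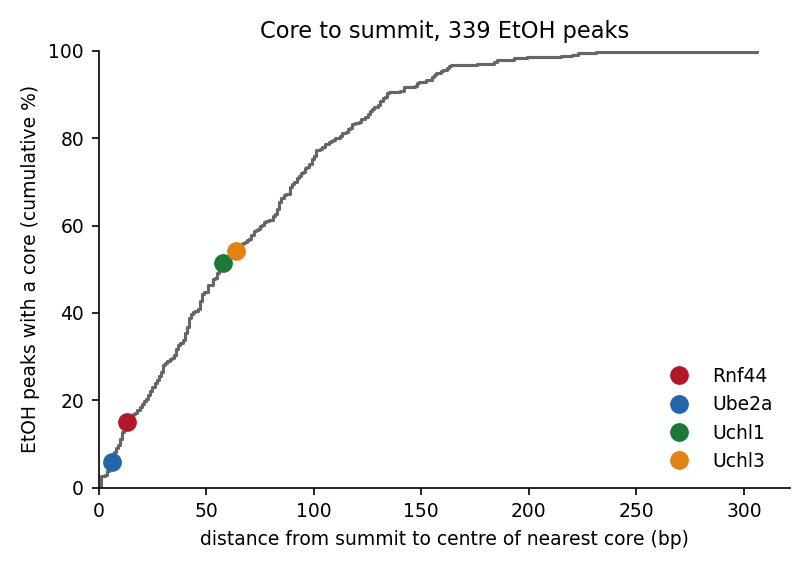
Cumulative share (%) of the 339 EtOH peaks with a core by the distance in bp from the summit to the centre of the nearest core, with the 4 genes coloured. *Ube2a* (6 bp) and *Rnf44* (13 bp) lie at the low end, and *Uchl1* (58 bp) and *Uchl3* (64 bp) lie near the median.

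The 4 promoters differed in other sequence features as well. The G+C content of the EtOH peak was 71.7% at *Rnf44*, 69.3% at *Ube2a*, 61.8% at *Uchl3* and 56.5% at *Uchl1*, and the median of all EtOH peaks was 58.9%. The ratio of observed to expected CpG dinucleotides was 0.966 at *Uchl3*, 0.890 at *Rnf44*, 0.698 at *Ube2a* and 0.600 at *Uchl1*, with a median of 0.695 over all peaks. *Uchl1* was therefore the lowest of the 4 in both.

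A search of both strands for letters of common promoter elements separated the genes further. The GC box letters GGGCGG were in all 4 peaks and in 53.6% of all EtOH peaks. CCGGAAG, the core of ETS factor sites, occurred 3 times at *Rnf44* and in no other of the 4 peaks (12.9% of all EtOH peaks). The letters GCATGCG, part of the NRF1 palindrome, occurred at *Uchl3* alone (4.92% of all). TATAA occurred at *Uchl1* alone (17.4% of all), in 1 stretch that matched on both strands, and its first base at 66676212 lay 30 bases before the start of Uchl1-203 and 121 bases after that of Uchl1-201. CCAAT (39.6% of all EtOH peaks) and TGACGTCA (3.41% of all) occurred in none of the 4. Such matches describe the letters and do not show that a factor was bound.

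Peaks at other ubiquitin pathway genes were counted over lists of genes. The lists were made by symbol, so they leave out many ligase genes with other symbols (F-box, cullin and TRIM genes, for example), some of which lay nearest to EtOH peaks. They covered, among others, E1, E2, Rnf-numbered RING finger, UCH, ubiquitin-specific protease (USP), ovarian tumour protease (OTU) and proteasome subunit genes, the partners of UBE2A and the closest relatives of the 4 genes. Of the 239 other genes on these lists, 7 (2.93%) had an EtOH peak, close to the 2.48% of all protein-coding genes, and none had a 4-OHT peak, where the background was 0.733%. With the 4 genes, the counts were 3 of 37 E2 genes, 1 of 85 genes with an Rnf symbol, 2 of 5 UCH genes, 1 of 3 E1 genes, 2 of 56 USP genes and 2 of 40 proteasome subunit genes. Without the 4 chosen genes they were 2 of 36 E2 genes, 0 of 84 genes with an Rnf symbol and 0 of 3 UCH genes. None of the 10 OTU genes had a peak in either list.

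Among the other genes of the lists, *Ube2b*, which encodes the closest relative of UBE2A, had the strongest EtOH peak. It lay on chromosome 11 from 52000424 to 52000760, with its summit 99 bp upstream of the TSS, a signal value of 413 at rank 104 and no core. This signal value was above the 254 of *Ube2a* in the same list, but the *Ube2b* peak had no overlap in the 4-OHT list. *Uba1*, which encodes the main E1 enzyme, had a peak of 228 at rank 194 with 2 cores, 7 bp from its TSS. *Usp15* (168, rank 234, 2 cores) and *Usp9x* (67.4, rank 347, no core) encode deubiquitinases and had peaks with summits 40 and 354 bp upstream of their starts. The peak assigned to *Psma7*, a 20S proteasome subunit (357, rank 124), was nearer to the start of *Ss18l1*. Those of *Ube2d3* (49.0, rank 402) and *Psmc3*, a proteasomal ATPase (37.5, rank 452), lay 1301 and 3071 bp into the gene.

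The 5 ligase genes listed as partners of *Ube2a* had no peak. *Rad18*, *Rnf20*, *Rnf40*, *Ubr1* and *Ubr2* were without one in both lists, and the nearest EtOH peak to a window was 0.0608 Mb away, at *Rnf40*. Of the closest relatives, *Uchl4* and *Uchl5* had none either, so that among the UCH genes the peaks were at *Uchl1* and *Uchl3* and not at *Uchl4*, *Uchl5* or *Bap1*. A gene without a listed peak may still have been bound below the limits of the peak calling.

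**Figure D5:**
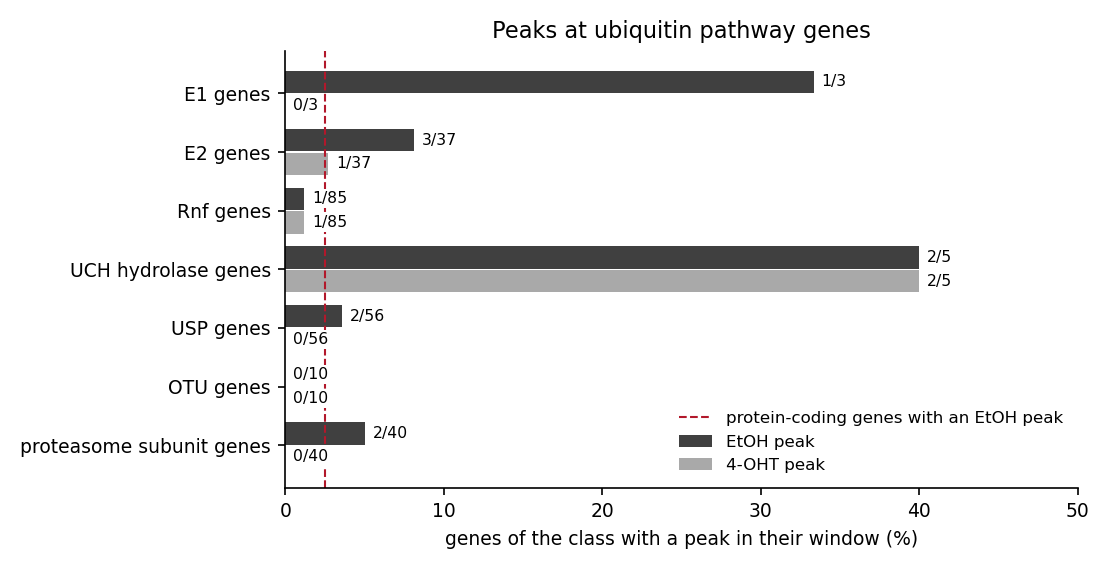
Share (%) of the genes of 7 ubiquitin pathway classes with an EtOH peak (dark bars) or a 4-OHT peak (light bars) in their window, with counts beside the bars; the dashed line marks the 2.48% of all protein-coding genes with an EtOH peak. The UCH bars (2 of 5) and Rnf bars (1 of 85) consist of genes that were chosen for their peaks, the E1 bar (1 of 3) rests on very few genes, and the Rnf class leaves out RING finger genes with other symbols. The only 4-OHT peaks in these classes are those of *Ube2a*, *Rnf44*, *Uchl1* and *Uchl3*.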

How the data were processed

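The members and gene lists were chosen with earlier results of these data known. Per the methods and labels, the authors aligned reads to mm10 with BWA 0.7.13, removed duplicates with Picard 2.10.6 and poor or multi-mapping alignments with SAMtools 1.2, called peaks with SPP on alignments pooled over the 3 ChIP samples, removed blacklisted regions and kept peaks with an IDR under 0.05 between pooled pseudo-replicates. The authors deposited 1 list per treatment. The deposited signal value is SPP's enrichment and the deposited score is the IDR score, capped at 1000. Pooling removes the spread between antibodies, and the lists record no depth. A further deposited column was not used.

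Peaks were joined to GENCODE vM21 genes, ranked within each list and compared by overlap of at least 1 bp. Sequence came from GRCm38.p6, and cores were matched on both strands of unmasked sequence. Named genes were the 4 genes, others sharing their windows, listed ubiquitin genes with a peak, relatives and partners, rank neighbours, and the 3 peaks most alike in percentile rank; some of these are not reported here. Other genes from the 10 highest EtOH peaks, and the promoter letters and repeat comparison, were added after values were seen. Overlap and core matching were tested on simulated data. The tools were Python 3.11.15, pyfaidx 0.9.0.4, matplotlib 3.10.9, pandas 2.3.3, scipy 1.17.1 and numpy 2.4.6.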

Additional observations from a re-analysis of the deposited data

How the results depend on the processing

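Each of the 4 genes kept an EtOH peak with the gene body alone, a TSS with 1 kb on either side, the gene body with 10 kb on either side, and IDR scores of at least 830 or of 1000. Ranks stayed within 1 place when overlapping peaks were merged into 484 regions, and *Ube2a* came at 170 of 376 promoter peaks. The overlap with the 4-OHT list depended on its definition. Overlap of at least 50% of both peaks left 3 of the 4 genes (without *Ube2a*) and 9.85% of all EtOH peaks. The widths alone kept *Ube2a* from meeting this rule, as its whole 205 bp peak made up 18.0% of the 1140 bp 4-OHT peak. Likewise, no EtOH peak of 430 bp could meet it against a 4-OHT peak of 1140 bp. Summits within 200 bp left 3 genes (without *Rnf44*), and an IDR score of at least 830 in both lists left 2, *Uchl1* and *Uchl3*. From the principal transcript, the summit distance was 5933 bp at *Rnf44* and 115 bp at *Uchl3*. From the midpoint of the peak it was 166 bp at *Rnf44*, 40 bp at *Ube2a*, 53 bp at *Uchl1* and 103.5 bp at *Uchl3*. The share of all EtOH peaks with a core was 48.7% within 100 bp of the summit, 33.1% for the full 14-base motif and 53.4% with 1 mismatch allowed outside the 6 fixed letters. Proteasome subunit genes with an EtOH peak fell to 1 with a TSS within 1 kb. Counts and ranks were held to within 1.5 times the reported value, shares to its 95% interval, and distances to the same number of bp. By these limits 43 of 55 alternative values stayed the same.

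No paired analysis was possible because each treatment has 1 list pooled over its samples, and leaving out each sample in turn was not run for the same reason. The lists give no read counts, so the counting error of a signal value is unknown.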

Other observations

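*Rnf44* sites 1, 2 and 4 lie in stretches of similar sequence, a pattern noticed in the sequence and then measured. Over the 51 bases centred on each core, read on the strand of the core, sites 1 and 2 shared 68.6% of bases, sites 2 and 4 shared 70.6%, and sites 1 and 4 shared 60.8%, without gaps. These 3 sites are on the strand of the gene, and their cores are spaced 121 and 223 bp apart. Site 3, which is on the other strand and nearest to the EtOH summit, shared 35.3% to 45.1% with the others when read on its own strand in the same way.

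The same measure over same-strand cores at least 51 bp apart in the EtOH peaks of other genes gave a median of 41.2% and a maximum of 58.8% over 99 pairs in 48 peaks. These pairs were not matched for G+C content, which was 71.7% in the *Rnf44* peak and had a median of 58.9% over all EtOH peaks. The 2 cores of *Ube2a* shared 47.1% and those of *Uchl3* 41.2%, although at *Uchl3* the stretches overlap because the cores are 28 bp apart. The peak with the highest EtOH signal value and the greatest width therefore also held repeated copies of a core-containing stretch. Whether the copies bear on the signal value, the width or the shift of the 4-OHT summit was not tested.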
